A study of Mus musculus with 9 samples.

Results

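The deposited FUBP1 ChIP-seq peak list of primary mouse embryonic fibroblasts (MEFs) holds 166 regions, and every one of them lies on chromosome 15, the chromosome that carries Myc. All 166 regions of the list were kept as they were called. The study describes FUBP1 binding at many other genes, and peaks on other chromosomes are not analysed here. Each peak was placed against the 762 chromosome 15 genes of the RNA-seq table of the same study. A peak was near a start or an end when its closest edge lay within 2 kb of that point, in the gene body when it overlapped a gene and was near neither, and intergenic otherwise. The list comes from 1 ChIP sample and gives positions only, so a peak's height and the spread between ChIP replicates are unknown, and what follows is a description of where this sample's peaks lie.

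The study asked how FUBP1 and FUBP2 set the level of MYC in single cells. Primary MEFs were cross-linked with formaldehyde for 8 min for the FUBP1 ChIP, and input DNA was the control. Expression came from Myc-Egfp+/+ MEFs, in which MYC is fused to a green fluorescent protein, that had been kept for 6 h with the proteasome inhibitor MG-132 at 20 µM and then sorted into low-MYC and high-MYC cells, with 2 technical replicate libraries per group. TACh-seq, which maps chromatin that a nuclease can reach, was made from wild-type (WT) MEFs and from Fubp1-knockout MEFs with Fubp2 knocked down (KOKD). For WT and knockout MEFs alike, the methods give 100 nM siRNA for 48 h, either against Fubp2 or non-target. The TACh-seq table is labelled as WT, yet the WT and the KOKD samples all point to it, and it names no library for its reads. Whether it holds KOKD reads is unknown, so WT and KOKD reads could not be separated here. The methods describe no sorting of the ChIP cells by MYC level, so peaks and expression were measured in different cultures. Technical replicates share a source, and a p-value from them measures the spread between libraries and not between animals.

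FUBP1 (far upstream element binding protein 1) binds single-stranded nucleic acid through KH domains, folds that grip short T-rich stretches of DNA or U-rich stretches of RNA. It was first known for binding a melted element upstream of human MYC, where DNA behind a moving polymerase is opened by torsional stress. Related proteins, FUBP2 (Khsrp) and FUBP3, share the KH domains, and FUBP2 is best known for its part in mRNA decay and splicing. The paper reports some cross-reaction of its ChIP antibody against FUBP1 with FUBP2. It names this as the likely source of the signal left at Myc in Fubp1-knockout cells. Which of the peaks hold FUBP2 is unknown here.

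In the sorted cells the normalized FPK of Fubp1 (fragments per kilobase, divided by a spike-in score that ties them to cell number) was 1.74 and 1.83 in the low-MYC libraries and 3.36 and 3.74 in the high-MYC libraries. All 10 fibroblast markers on the list used for checking were expressed (mean normalized FPK of at least 0.1 over the 4 libraries), with a summed level of 334 to 339 in low-MYC libraries, against 802 to 818 in high-MYC libraries. Endothelial, epithelial and neural markers had 1 expressed gene each. Macrophage markers had 7 of 10 expressed, with Ptprc below 0.01. Their summed level was 0.623 to 0.865 in low-MYC libraries, against 26.8 to 28.2 in high-MYC libraries.

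To show what kind of DNA lay under the peaks, 150 bp from the middle of a peak are given for 4 classes of position, each from the peak whose GC content was closest to the median of its class and whose middle held no annotated exon. They are read from the mm10 (GRCm38) plus strand of RefSeq. Capitals mark TTGT, a T-rich word of the kind FUBP1 is known to favour, or its reverse complement ACAA.
Intergenic peak, chr15:70619026-70619175: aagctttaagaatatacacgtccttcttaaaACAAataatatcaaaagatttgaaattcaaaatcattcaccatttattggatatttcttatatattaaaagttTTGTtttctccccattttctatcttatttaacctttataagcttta
Gene body peak in an intron of Ccnt1, chr15:98561826-98561975: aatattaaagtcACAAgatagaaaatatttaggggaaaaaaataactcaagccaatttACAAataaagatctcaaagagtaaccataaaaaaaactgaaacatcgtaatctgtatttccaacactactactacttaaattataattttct
Gene end peak, downstream of the end of Tuba1a, chr15:98948726-98948875: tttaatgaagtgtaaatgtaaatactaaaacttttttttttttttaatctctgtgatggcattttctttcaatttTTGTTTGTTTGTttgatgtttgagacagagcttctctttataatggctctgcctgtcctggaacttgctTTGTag
Gene start peak, near the start of the lncRNA Gm17057 inside Lima1, chr15:99819226-99819375: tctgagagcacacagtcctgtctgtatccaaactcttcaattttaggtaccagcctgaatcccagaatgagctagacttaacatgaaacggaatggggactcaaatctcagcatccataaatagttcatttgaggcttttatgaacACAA
The GC content of these windows was 22.7%, 24.7%, 30% and 40.7%, in the order printed. Their whole peaks stood at 33.5%, 40.6%, 41.8% and 45.3%, so each window was poorer in GC than its peak. The words marked are common: 78.3% of all 150-bp windows of chromosome 15 without assembly gaps held TTGT on either strand.

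The peaks were broad. Their edges lay on a grid of 200 bp, the window of the peak caller, and their width had a median of 4200 bp, with the middle of the distribution between 3050 and 5400 bp and extremes of 1200 and 21400 bp. Together they covered 780400 bp, which is 0.775% of the sequenced bases of the chromosome.

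Peak bases lay at gene ends, at gene starts and in gene bodies in larger shares than the bases of the chromosome did. Of the 166 peaks, 13 were near a gene start only, 26 near a gene end only, 10 near both, 63 in a gene body and 54 intergenic. In all, 36 peaks were near an end and 23 near a start. Counted by bases, positions within 2 kb of an end but not of a start held 13.4% of peak bases and 2.31% of the chromosome, so 4.49 of every 100 such bases lay in a peak. For positions near a start only the shares were 4.94% and 2.22%, with 1.73 of every 100 bases in a peak. Positions near both a start and an end held 1.39% and 0.494%, with 2.18 of every 100 bases in a peak. Gene bodies held 49.0% of peak bases and 32.9% of the chromosome, with 1.15 of every 100 bases in a peak. Intergenic positions held 31.4% and 62.0%, with 0.392 of every 100 bases in a peak. These shares come from 1 sample and have no replicate error.

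**Figure D1:**
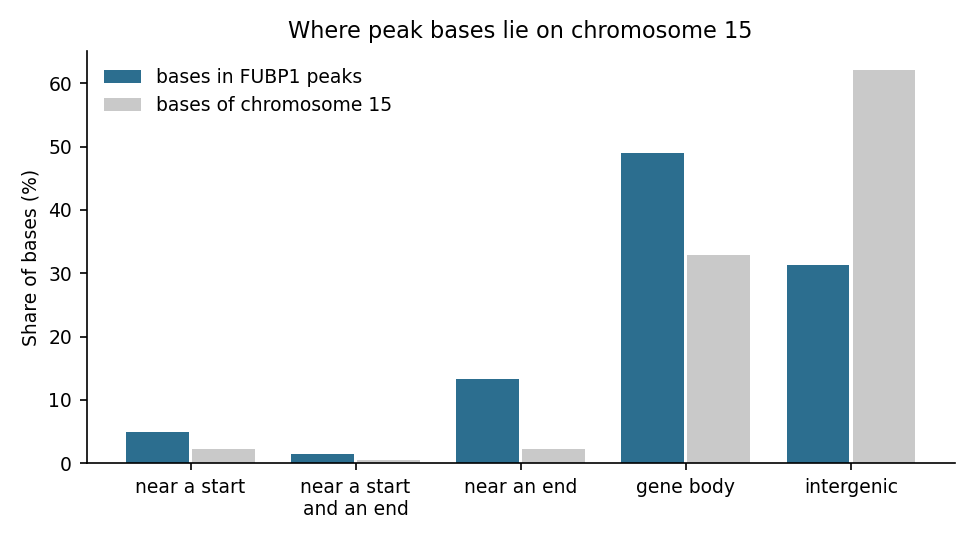
Share of bases (%) in each class of position, for bases inside FUBP1 peaks and for all sequenced bases of chromosome 15. Gene ends take 13.4% of peak bases against 2.31% of the chromosome, and intergenic positions take 31.4% against 62.0%.

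Exons of protein-coding genes, in the GENCODE M21 annotation, were also set beside the peaks. The 3' untranslated regions, the stretch of mRNA between the stop codon and the poly(A) tail, made up 5.22% of peak bases and 1.01% of the chromosome. Coding exons made up 3.87% and 1.39%, and 5' untranslated regions 0.868% and 0.385%. Introns, together with exons that code for nothing, held most peak bases, 52.5% against 36.7%. Of the 63 gene body peaks, 27 touched no annotated exon.

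Along genes the peaks leaned to the 3' side. Averaged over the 408 expressed protein-coding genes, 1.72% of genes were inside a peak in the last 500 bp before the start and the same 1.72% in the first 5% of the gene. The share was 3.92% at the middle, 6.86% in the last 5% and 7.84% in the first 500 bp past the end. At 5 kb past the end it was still 4.90%. Over the 191 protein-coding genes that were not expressed, no bin of the gene body or its flanks exceeded 1.05%. Neighbouring genes can share a flank, so the downstream share includes peaks that belong to the next gene.

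**Figure D2:**
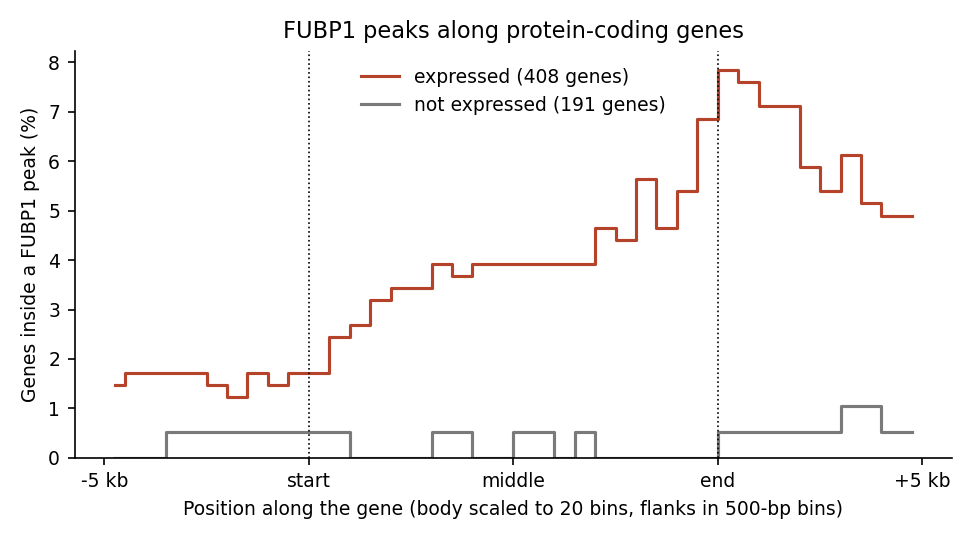
Percentage of protein-coding genes inside a FUBP1 peak (y axis) along the gene, with the body scaled to 20 bins and flanks of 5 kb in 500-bp bins. The line of the 408 expressed genes climbs from 1.72% at the start to 7.84% just past the end, while that of the 191 genes not expressed stays at or below 1.05%.

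Single peaks at gene ends usually straddled the end. Of 45 pairs of a peak and a gene end within 2 kb, 33 peaks covered the end, 6 stopped before it and 6 began past it. The downstream edge lay at a median of 2590 bp past the end and the upstream edge at a median of 2346 bp before it. Of 30 pairs at gene starts, 13 peaks covered the start, 12 began downstream of it and 5 ended upstream. Away from both ends, 63 pairs of a body peak and its gene were spread over the length of 36 genes, with 7, 12, 17, 16 and 11 peak centres in successive stretches of 20% of the gene from start to end.

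Genes with separate peaks at both ends were 9 in number: Myc, Tuba1a, Tuba1b, Hnrnpa1, Slc38a2, Has2, Ccn4, Cbx5 and Myh9. Hnrnpa1 lay wholly inside 1 peak. It counts here only through another peak, on Cbx5, that ended within 2 kb upstream of its start without touching it. All 9 were expressed, with mean normalized FPK between 3.47 and 320 and a median of 15.1, where the 459 expressed chromosome 15 genes had a median of 0.974. The count rests on the 2 kb distance: 7 genes remained at 1 kb, 4 when the centre of the peak was used, and only Slc38a2 when a peak had to cover both points.

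Myc encodes the transcription factor whose level the study followed. It had a peak of 1400 bp that began 410 bp downstream of its start and a peak of 1800 bp that ran from 1173 bp before its end to 626 bp past it, with no peak on the gene between them. Its normalized FPK was 9.81 and 9.86 in low-MYC libraries, against 20.3 and 20.5 in high-MYC libraries. The cells had been sorted by MYC level. Both high-MYC libraries also stood above both low-MYC libraries for 99.0% of all genes with a mean of at least 0.1. The alpha-tubulin genes Tuba1a and Tuba1b, which encode the building block of microtubules, also had a peak at each end. The start-side peak of Tuba1a began 103 bp into the gene, and that of Tuba1b began 635 bp before the gene. The end-side peak of Tuba1a ran from 163 bp before the end to 2236 bp past it. That of Tuba1b lay outside the gene, from 25 to 2224 bp past its end. Tuba1a stood at 146 and 151 in low-MYC cells, against 357 and 361 where MYC was high. Tuba1b stood at 188 and 194 against 443 and 456. The third alpha-tubulin gene, Tuba1c, had no peak, with a mean of 30.1. These 3 genes are close in sequence, and how reads were split between them is uncertain.

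Hnrnpa1, which encodes an abundant RNA-binding protein of splicing, and Cbx5, which encodes the heterochromatin protein HP1 alpha, start beside each other on opposite strands and share the peaks between and around their starts. A peak of 10400 bp began 431 bp before the start of Hnrnpa1 and ran 3708 bp past its end, so the whole gene lay inside it. A second peak of 3000 bp lay on the first part of Cbx5, from 616 to 3615 bp into the gene, and another covered its last part, up to 257 bp before the end. Hnrnpa1 stood at 41.9 and 44.6 in low-MYC libraries, against 76.2 and 85.7 in high-MYC libraries. Cbx5 stood at 1.94 and 2.09 against 4.64 and 5.21.

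Slc38a2 encodes an amino acid transporter that cells raise when amino acids run short. Its 2 peaks, of 7200 and 7800 bp, covered 93.5% of the gene and reached from 1470 bp before the start to 1991 bp past the end. Its levels were 7.80 and 7.88 in low-MYC libraries, against 17.5 and 18.6 in high-MYC libraries. Has2, which encodes the main hyaluronan synthase of fibroblasts, had 3 peaks; the first began 1739 bp inside the gene and the last, of 8800 bp, ran 6626 bp past the end. Has2 stood at 4.24 and 4.41 against 11.2 and 12.5. Ccn4, which encodes a secreted matrix protein of the Wnt response, had a peak from 481 bp into the gene and a peak of 11600 bp that ran 5999 bp past its end, toward the end of the neighbouring Ndrg1.

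Myh9, the heavy chain of non-muscle myosin IIA, carried the most peak sequence. It had 5 peaks over the gene and a sixth that began 187 bp past its end, and 70.8% of its 81589 bp lay in peaks. These included the widest peaks of the list: 21400 bp from 1625 bp before the start into the gene, and 19600 bp further along. Its levels were 15.2 in both low-MYC libraries and 33.9 and 34.0 in high-MYC cells. The end-side peak also lies near the start of Apol8, whose mean normalized FPK was 0.0209.

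**Figure D3:**
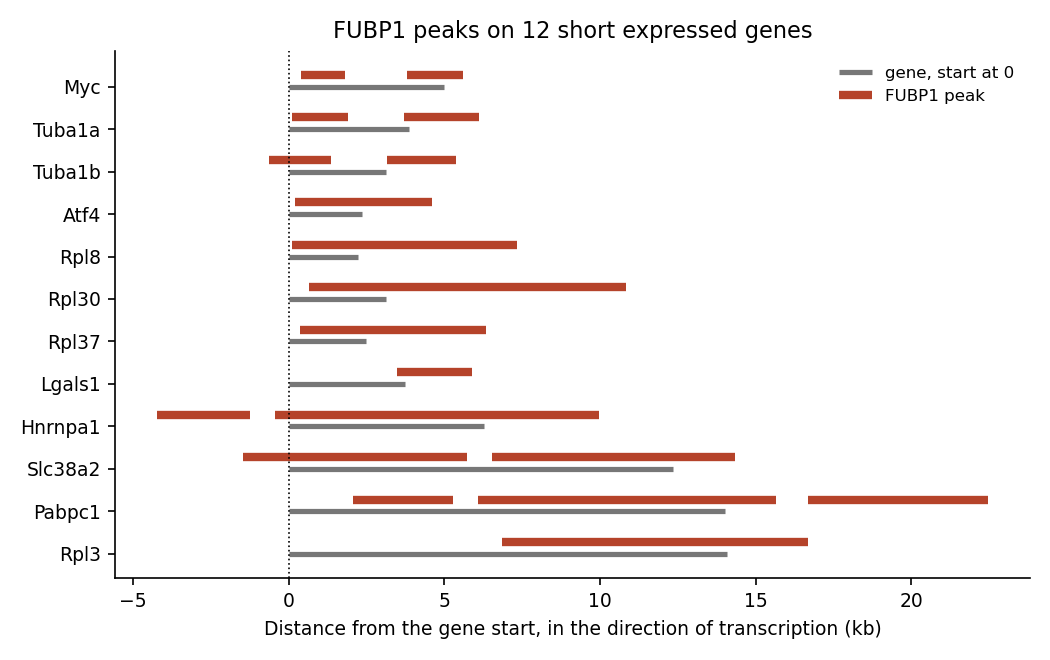
Genes of up to 15 kb drawn in the direction of transcription, with distance from the gene start in kb on the x axis, gene extents in grey and all FUBP1 peaks within 5 kb of the gene in red. Peaks of Myc, Tuba1a, Atf4, Rpl8, Rpl30 and Rpl37 begin within the gene and their last peaks run past its end.

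Of the 17 genes of at most 5 kb with a mean of 10 or more, 4 lay under a single peak from near the start to past the end, 3 had separate peaks at both ends and 9 had no peak. Atf4, the transcription factor of the integrated stress response, lay under a 4400-bp peak that began 217 bp after its start and ended 2259 bp past its end. Its normalized FPK was 35.6 and 35.7 in low-MYC libraries, against 61.0 and 65.9 in high-MYC libraries. The ribosomal protein genes Rpl8, Rpl37 and Rpl30 had peaks that began 123, 356 and 640 bp into the gene and ran 5086, 3860 and 7704 bp past the end. The same peaks covered the end of Zfp647, the whole of Gm10250 and the end of Matn2, in that order. The lengths past the end therefore cannot be assigned to the ribosomal protein genes alone. Of 15 expressed genes of at most 15 kb that a peak overlapped and that had a peak near the end, the first peak began after the start in 11, and the last one ran past the end in 14, at a median of 2259 bp for all 15. Rpl37 and Gm10250 are both among the 15 and share a peak. Klf10, an early-response transcription factor, was the exception at the end, with its peak stopping 738 bp before it. Lgals1, which encodes galectin-1, is the most highly expressed gene on the chromosome in this table (233 and 229 in low-MYC, 522 and 518 in high-MYC libraries). Its only peak, of 2400 bp, began 264 bp before the end and ran 2135 bp past it. Rpl3 had a 9800-bp peak that began 6868 bp into the gene and ended 2590 bp past the end.

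In 3 places, runs of 3 peaks stood with gaps of at most 1 kb between them. Pabpc1, which encodes the cytoplasmic poly(A)-binding protein, had peaks of 3200 and 9600 bp that covered 79.5% of the gene, with a further peak of 5800 bp starting 2661 bp past its end. Pcbp2, which encodes a poly(C)-binding protein with KH domains, had a run of 27600 bp that passed its end and entered the facing gene Map3k12. The middle peak there, of 15200 bp, was next in width after those of Myh9. The third run, of 47600 bp, was on Myh9. Joining all peaks with such gaps would turn the 166 peaks into 154 regions.

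The gene with the most peaks was weakly expressed. A peak overlapped 74 of the 762 genes, 51 of them with 1 peak, 13 with 2, 5 with 3, and 5 genes with 4 or more. Asap1, which encodes a regulator of Arf GTPases at focal adhesions, had the most, 10 peaks of 2200 to 6800 bp. They lay between 72119 and 210518 bp from the start of the 296063-bp gene, with none near either end, and 8 of the 10 touched no exon. Its level was low, 0.336 and 0.354 in low-MYC libraries, against 0.657 and 0.723 in high-MYC libraries. Lima1, which encodes an actin-bundling protein, had 5 peaks. Lima1 stood at 2.03 and 2.05 in low-MYC libraries, against 4.61 and 4.86 in high-MYC libraries. Its last peak ran 2269 bp past the end. Csmd3, a very long gene known from neurons, had 4 peaks over 1211427 bp and was not expressed, with a mean of 0.000154. Over the 459 expressed genes Spearman's rho of the number of peaks with the level was 0.24, and with gene length 0.19; these are descriptions across genes, most of which have no peak.

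Expressed genes held a peak more often than genes that were not expressed in this list. A peak overlapped 56 of 459 expressed genes (12.2%, exact 95% interval 9.35 to 15.5%) and 18 of 303 genes that were not expressed (5.94%, 3.56 to 9.23%). Intervals cover counting error only, and neighbouring genes can share a peak. By level, the share was 6.81% of 235 genes between 0.1 and 1, 12.8% of 188 genes between 1 and 10, and 44.4% of 36 genes at 10 or more (27.9 to 61.9%). The median gene length in the 3 sets was 22341, 13835 and 5586 bp. Among expressed genes the share with a peak also differed by length: in 4 sets of 114 or 115 genes from the shortest genes to the longest it was 7.83%, 6.96%, 13.2% and 20.9%, and the median length was 32059 bp with a peak and 14183 bp without. Peaks covered 11.3, 39.7 and 349 bp per kb of gene in the same order. Of the 138 genes below 0.01, 13 (9.42%) had a peak, and their median length was 98719 bp against 30852 bp for those without.

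**Figure D4:**
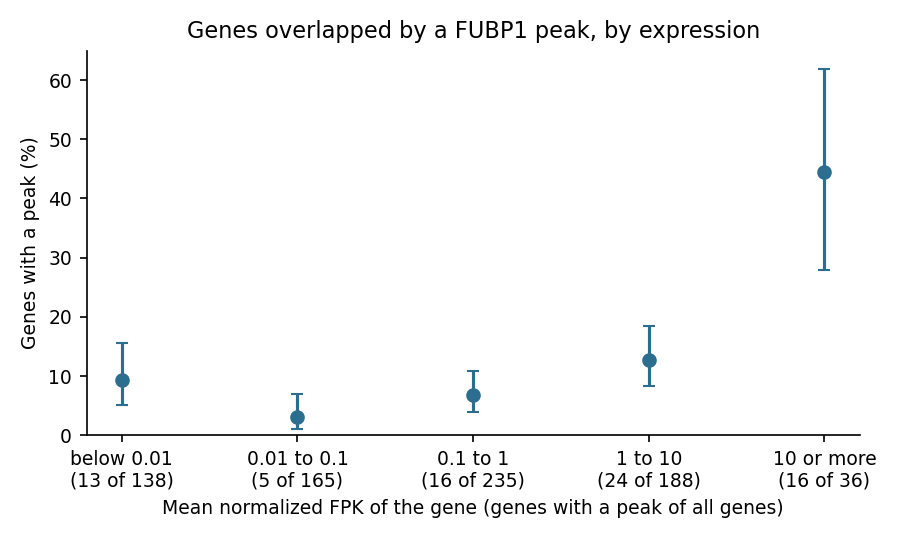
Percentage of chromosome 15 genes overlapped by a FUBP1 peak (y axis) by mean normalized FPK of the gene, with exact 95% binomial intervals. The 36 genes at 10 or more stand at 44.4%, above every other set, whose values run from 3.03% to 12.8%.

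Among the 10 most highly expressed genes, 9 had a peak: Lgals1, Tuba1b, Tuba1a, Rpl8, Rpl30, Rpl37, Hnrnpa1, Pabpc1 and Atf4. The exception was Rpl31-ps8, a processed pseudogene of 378 bp whose level is uncertain because its reads may be shared with its parent gene. Among the top 100, 27 had a peak. High expression alone did not mark a gene out, since 20 of the 36 genes at 10 or more had none, such as Cct5 (mean 22.9), Tomm22 (21.1), H1f0 (20.1) and Itga5 (19.9).

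Widths followed the level of the gene only loosely. The median width was 3600 bp for 15 peaks whose highest overlapped gene was below 0.1, 4000 bp for 29 peaks at 0.1 to 1, 4400 bp for 39 peaks at 1 to 10 and 6100 bp for 26 peaks at 10 or more. It was 3800 bp for the 57 peaks over no gene. Spearman's rho of width with the level of that gene was 0.23 over 109 peaks. Among the 56 expressed genes with a peak, the percentage of the gene inside peaks went with its level (rho 0.73), but that measure also shrinks with gene length.

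Of the translation and RNA-binding list, 10 of 14 chromosome 15 members were overlapped: Rpl3, Rpl8, Rpl30, Eif3e, Pabpc1, Hnrnpa1, Pcbp2, Ddx17, Larp4 and Rbfox2, with a median level of 18.5. Expressed members without a peak were Eif3d, Eif3l and Eif3h. Of the growth and stress transcription factors, 5 of 14 were overlapped: Atf4, Myc, Klf10, Nr4a1 and Sp1. Nr4a1, an orphan nuclear receptor induced early by growth signals, had a 2800-bp peak across its end. The peak of Sp1, which encodes a general GC-box factor, lay upstream and reached only 57 bp into the gene. Of 25 adhesion, matrix and cytoskeleton genes, 6 were overlapped: Asap1, Dab2, Ext1, Has2, Lgals1 and Myh9. None of the 9 Hoxc genes (6 expressed, up to 3.68) had a peak. None of the 6 measured Ly6-family genes (4 expressed, up to 6.99) and none of the 5 measured keratins (1 expressed, Krt18 at 0.177) had one either. For comparison, 74 of all 762 genes (9.71%) and 56 of 459 expressed genes had a peak, so 0 of 5 to 9 genes is near the background share and no result about those lists. All lists were drawn up with earlier results known.

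Intergenic peaks had the lowest median GC content, with overlap between the classes. Single peaks ranged from 24.4 to 43.6% when intergenic and from 29.1 to 55.7% in gene bodies. Median GC content was 33.6% in the 54 intergenic peaks, 40.6% in gene body peaks, 42.4% near ends, 45.3% near starts and 46.1% near both, where chromosome 15 as a whole had 42.0%. Each median lay below the GC content of all bases in its own class of position, which was 40.9% for intergenic bases, 43.0% for gene bodies, 46.6% near ends and 50.1% near starts. The gap was widest for intergenic peaks. A peak took its class from its closest edge but its GC content from its whole length. Peaks near starts or ends could therefore hold bases of other classes, so their medians and the class values are not like measures. Of peak bases, 26.2% were soft-masked as repeats, against 32.6% of the chromosome.

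TTGT, counted on both strands with overlaps, had a median of 15 per kb in intergenic peaks, 12.1 in gene bodies, 12.6 near ends and 10.6 near starts, with 11.5 per kb over the chromosome. TTTT stood at 37.0, 27.0, 28.1 and 32.6 per kb against 23.4. ATTC stood at 10.6, 8.61, 7.67 and 7.69 against 8.59. Each word was most frequent in intergenic peaks, and the order of the other classes differed between words. No site or binding is read from these counts.

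Within genes the T-rich words were not shared evenly between strands. In 83 peaks over a single expressed gene, TTGT occurred 7.65 times per kb on the gene's coding strand, the one that reads like the mRNA, and 3.94 times on the other. It was more frequent on the coding strand in 72 of 83 peaks. The parts of the same 47 genes outside peaks had 7.34 and 4.26 per kb. The ratio was 1.94 inside the peaks and 1.72 outside. For TTTT the ratios were 1.67 and 1.58, and for ATTC 0.938 and 0.967. The coding strand was thus richer in TTGT outside the peaks too.

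Accessible chromatin also differed between the classes of peaks, as it did between the classes of position themselves. The TACh-seq table holds 218107 reads on chromosome 15, and they lie in 2.92% of its sequenced bases, so a region without reads may only have been left out of the table. At least 1 read had its centre in 43 of the 166 peaks (25.9%). These were 11 of 13 peaks near a start, 7 of 10 near both, 8 of 26 near an end, 16 of 63 in gene bodies and 1 of 54 intergenic peaks. The 1 intergenic peak was chr15:75085201-75087200, close to the Ly6 gene cluster, which held 992 reads in 2000 bp. Reads per kb were 51.8 in peaks near a start only and 27.7 in flanks of the same width on each side. These pooled values lean on few peaks. Of 3534 reads in peaks near a start only, 1325 lay in the Myh9 peak and 776 in the Sp1 peak. Of 3013 reads in gene body peaks, 1161 lay in the 19600-bp peak of Myh9. Near ends only, peaks had 6.62 and flanks 9.60 reads per kb, and in gene bodies 10.4 and 10.6. Over the chromosome there were 2.17 reads per kb.

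**Figure D5:**
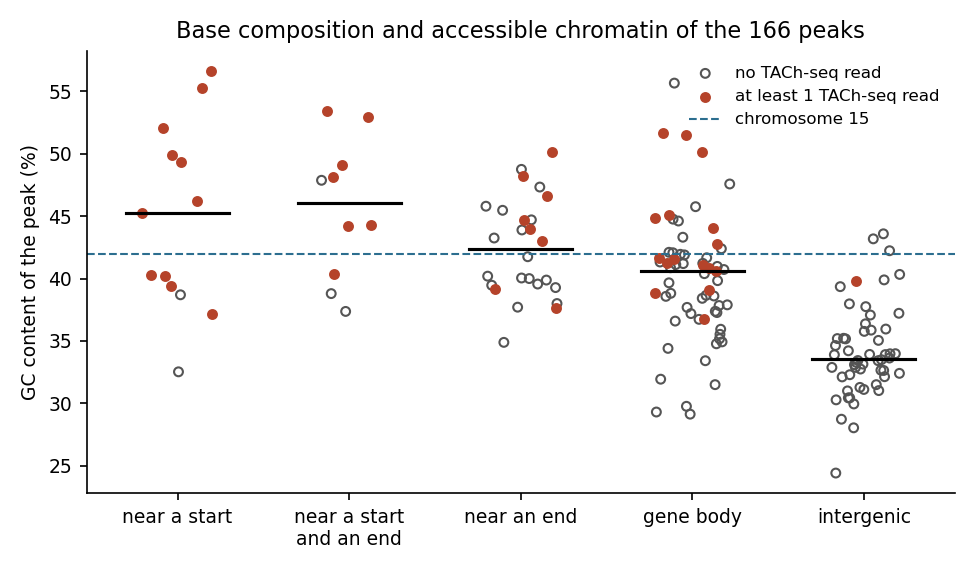
GC content (%) of each of the 166 peaks by class of position, with filled points for peaks that hold at least 1 TACh-seq read, black bars for medians and a dashed line for chromosome 15 (42.0%). Intergenic peaks centre on 33.6%, and 1 of the 54 is filled.

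On single genes the start-side and end-side peaks could differ in this. The start-side peak of Tuba1a held 164 TACh-seq reads and the end-side peak 0, and for Slc38a2 the counts were 236 and 0. Both peaks of Myc held reads, 110 at the start and 23 at the end. Those of Tuba1b held 215 and 55. The 15200-bp peak on Pcbp2 and the 7200-bp peak on Rpl8 held none. Of the 10 peaks on Asap1, 4 held a read.

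The intergenic peaks sat mostly far from genes. The nearest gene of the table was at a median distance of 250458 bp, and 38 of the 54 were over 100 kb away. GC content was below 35% in 35 of the 54. Between 13 and 24 Mb, a stretch with 6 genes of the table of which 1 was expressed, there were 22 peaks, 20 of them intergenic. Between 45 and 48 Mb, with 2 genes of the table and neither expressed, there were 10 peaks, 9 of them intergenic. The nearest genes in the table were Cdh6, Cdh10, Cdh18, Gm8318 and Acot10 in the first stretch and Gm5472 and Csmd3 in the second. The GC content of the stretches was 36.8% and 36.6%, itself below that of the chromosome. The fuller GENCODE M21 annotation places 13 of the 54 on a gene, 6 of them on a protein-coding gene such as the cadherin genes Cdh9 and Cdh12, which are known from neurons. The widest intergenic peak, of 11200 bp at chr15:103887401-103898600, overlapped Mucl2 in that annotation.

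Peaks whose highest overlapped gene was not expressed were AT-rich too. These 15 peaks had a median GC content of 35.5%, and 1 of the 15 held a TACh-seq read. The 18 genes that were not expressed and had a peak ranged from 1833 to 1211427 bp in length, and included lncRNAs such as Has2os and protein-coding genes such as Csmd3, Cdh18, Spef2 and Nckap1l. For the 26 peaks on genes at 10 or more the median was 46.8%, and 18 of the 26 held a read.

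High-MYC cells had higher normalized FPK than low-MYC cells for genes with a peak, as for nearly all genes. The comparison used limma on log2(FPK + 0.1), with Benjamini-Hochberg over 11870 genes. Of the 56 tested genes with a peak, 40 (71.4%) were at least 2-fold higher at an adjusted limma p under 0.01. By the same call 55.1% of all tested genes were higher, and 58.6% of the tested chromosome 15 genes without a peak. None of the 56 genes was lower, also at an unadjusted limma p under 0.05. Both high-MYC libraries stood above both low-MYC libraries for 56 of 56 genes, and for 99.0% of all tested genes. The median log2 difference was 1.08 for the 56 genes, 1.05 for the 403 tested chromosome 15 genes without a peak and 1.03 for all genes. The 56 passed the same filter on low values as every tested gene, and the other 18 of the 74 genes with a peak did not.

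The log2 difference on this spike-in scale ran from 0.40 for Nr4a1 to 1.67 for Osmr, the oncostatin M receptor. It was 1.43 for Has2 (SE 0.06), 1.27 for Tuba1a (SE 0.05), 1.15 for Myh9, 1.04 for Myc (SE 0.04), 0.83 for Atf4 and 0.83 for Asap1. Nr4a1 stood at 2.59 and 2.53 in low-MYC libraries, against 3.31 and 3.51 in high-MYC libraries. With all 4 libraries set to a common median, the median difference of the 56 genes was -0.025. In limma 3 of the 56 then had an adjusted p under 0.01, and none of them reached 2-fold. At an unadjusted limma p under 0.05, 9 were higher and 10 lower, and the matching share of all genes is not given here. The differences of Myc, Atf4, Myh9, Asap1 and Nr4a1 then lay below 0, and those of Has2 and Tuba1a stayed above 0. Nckap1l, a gene known from blood cells with 1 peak in its body, was below the filter, at 0.00126 and 0.00097 in low-MYC libraries and 0.114 and 0.117 in high-MYC libraries. The macrophage markers stood higher in the same libraries (summed level 26.8 to 28.2 against 0.623 to 0.865, with 7 of 10 expressed), and their part in these differences was not tested.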

How the data were processed

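FUBP1 ChIP-seq of primary MEFs (1 sample), RNA-seq of MEFs sorted for low or high MYC (4 libraries) and TACh-seq of WT and KOKD MEFs (4 samples sharing 1 table) were used. For ChIP-seq, the authors trimmed low-quality bases, mapped reads with Bowtie2 (mm10) and ran SICER with input DNA as the control; the deposited list gives positions and no score. Its starts count from 0 and its ends are the last base, so 1 was added to both. For RNA-seq, the authors divided reads per transcript by length and by an ERCC spike-in score; the deposited signal is this normalized FPK for 19769 genes, and sequencing depth is unknown. Gene ends, 1 base past the annotation, were corrected. Reads shared by paralogs, pseudogenes or overlapping genes make those genes uncertain. The deposited TACh-seq table lists read positions with a mapping score. No columns of per-sample values were left unassigned (0).

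Peaks were placed by their edges against gene starts and ends within 2 kb, GENCODE M21 and the GRCm38 sequence. Genes at a mean of at least 0.1 were called expressed. log2(FPK + 0.1) was compared with limma 3.58.1 (eBayes with trend, R 4.3.3), checked on simulated data; a gene was called changed at an adjusted p under 0.01 and at least 2-fold. Intervals are exact Clopper-Pearson at 95%. Named genes are those with 4 or more peaks, with separate peaks at both ends, under the 5 widest peaks, the 10 highest in FPK, Myc, Atf4 and Tuba1a, genes nearest to clusters of intergenic peaks or to one over 10 kb wide, and members of the gene lists; others were chosen after their values were seen. The members and lists were chosen with earlier results of these data known. Alternatives covered the distance, gene set, midpoint, width, overlap, expression cut, pseudocount, filter, scaling, limma trend, replicate block, left-out libraries, TACh-seq reads and the middle of the peak. Placement and figures used Python 3.11.15 with numpy 2.4.6, pandas 2.3.3, matplotlib 3.10.9 and scipy 1.17.1. A gene that meets the rule for named genes is not reported here.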

Additional observations from a re-analysis of the deposited data

How the results depend on the processing

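With 1 ChIP sample the placement of peaks could be varied only by rule. The 23 peaks near a gene start became 40 at 5 kb, 12 when a peak had to cover the start, 11 by peak midpoint and 14 among peaks of at least the median width, and stayed between 19 and 23 at 1 kb, with expressed or GENCODE protein-coding genes, and with neighbouring peaks joined (chosen after seeing the data). Genes with separate peaks at both ends were 1 under the rule of covering both points and 4 by midpoint, against 9, and 7 to 13 otherwise. The 36 peaks near an end (24 to 51), the 63 in gene bodies (49 to 75), the 54 intergenic peaks (40 to 68) and the 74 overlapped genes (55 when at least 50% of a peak had to lie inside the gene) kept within 1.5 times. Of genes at a mean of at least 1, 17.9% were overlapped, against 12.2% of genes at 0.1 or more; setting expressed genes from the low-MYC or the high-MYC libraries alone, both chosen after seeing the data, gave 13.1% and 11.7%.

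The 40 genes with a peak that were higher in high-MYC cells became 15 with a pseudocount of 1 and 0 with libraries rescaled to the same median. In that rescaling 65 of all 11870 genes were called higher and 6 lower. The median log2 difference of genes with a peak, 1.08, was 1.14 with a pseudocount of 0.01, 0.84 with a pseudocount of 1, 1.14 at a minimum mean of 1 and -0.025 after rescaling. Rescaling also turned the log2 difference of Myc to -0.13, of Atf4 to -0.35, of Hnrnpa1 to -0.28, of Myh9 to -0.021, of Nr4a1 to -0.74 and of Asap1 to -0.15. Leaving out each library gave 32 to 43 such genes and medians of 1.03 to 1.14, with the lone library assumed to vary like the other group. The replicate numbers mark technical replicates, and deviations of same-numbered libraries correlated at 0.08 over 11870 genes. The replicate block gave 40 genes and a median of 1.08.

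TACh-seq reads per kb in peaks, 12.3, were 10.3 with each position and strand once and 10.5 with the highest mapping score only, with 43 peaks holding a read each time. Median GC content was 39.0% for whole peaks and 37.5% for their middle 200 bp. A stricter peak threshold was not run, since the list gives no score. The cause of these changes was not tested. Depth limits are unknown for the RNA-seq values, and the peak list has no replicate.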
